A study of Mus musculus with 2 samples.

Results

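The transcripts of 10 alpha-defensin genes (Defa5, Defa17, Defa21, Defa22, Defa23, Defa24, Defa29, Defa30, Gm14851 and AY761184) were counted in intestinal epithelial cells. There were 2 single-cell libraries, 1 of WT mice and 1 of their MG53-TG littermates, which overexpress MG53 (gene Trim72), a membrane repair protein of muscle, in the whole body. Both groups received 2.5% dextran sulfate sodium (DSS), which injures the gut lining, and live EpCAM+ cells were sorted from dissociated crypts on day 7. WT is wild type, and the study names a CD45- gate as well. How many mice each library held is not stated in the labels. The genes were chosen by symbol among the 32285 genes of the tables, with their earlier values in these data known, and all 10 had unique molecular identifiers (UMIs). A further 14 alpha-defensin symbols were present, of which 13 had a UMI.

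Alpha-defensins are small cationic antimicrobial peptides that Paneth cells, the granular secretory cells at the base of small intestinal crypts, release into the crypt lumen. The mouse carries many near-identical copies of these genes, called cryptdins, beside cryptdin-related sequence (CRS) genes whose mature peptides have another arrangement of cysteines. The peptides are made as inactive precursors, which matrilysin (Mmp7) cleaves in the mouse.

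In the GENCODE annotation of GRCm38 (mm10), all 10 genes lay on chromosome 8 between positions 21025545 and 21735471, a span of 709.9 kb, and each had 2 exons. From left to right these were Defa21 (21025545 to 21026516), Defa23 (21055047 to 21056016), Gm14851 (21095074 to 21096050), Defa30 (21134642 to 21135598) and Defa22 (21162277 to 21163249). Then came Defa5 (21297439 to 21298375), Defa29 (21325887 to 21327020), Defa17 (21655780 to 21656735), AY761184 (21702519 to 21703645) and Defa24 (21734494 to 21735471). Gm14851, Defa29 and AY761184, which RefSeq synonyms place among the CRS genes, were on the minus strand, and the other 7 were on the plus strand. Annotated transcripts of plus-strand members were 74.8 to 99.3% identical to each other over 21 pairs, whereas pairs with 1 member on each strand reached 57.3 to 67.3%.

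Defa21 and Defa22, a pair singled out after the values were seen, were the most alike of all members, with transcripts 99.3% identical. Their promoters in RefSeq, windows around the start of transcription, were the same in 300 of 300 bases. Promoters of 5 members were used here. The bases before each start are shown 5′ to 3′ because the pair differed most between the libraries, with Defa23, Defa30 and Gm14851 beside them as members that differed less. Coordinates are of GRCm38.p6, and starts are those of RefSeq, which can lie a few bases from those of GENCODE. Capitals mark ATCAAAG, the core letters of the TCF/LEF motif, read on both strands.
Defa21, chr8:21025395-21025544, plus strand: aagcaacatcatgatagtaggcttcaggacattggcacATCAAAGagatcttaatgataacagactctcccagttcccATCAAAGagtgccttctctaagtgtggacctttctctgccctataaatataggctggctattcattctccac
Defa22, chr8:21162127-21162276, plus strand: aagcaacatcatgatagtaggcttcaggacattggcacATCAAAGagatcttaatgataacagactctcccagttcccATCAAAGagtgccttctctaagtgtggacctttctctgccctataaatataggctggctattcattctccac
Defa23, chr8:21054890-21055039, plus strand: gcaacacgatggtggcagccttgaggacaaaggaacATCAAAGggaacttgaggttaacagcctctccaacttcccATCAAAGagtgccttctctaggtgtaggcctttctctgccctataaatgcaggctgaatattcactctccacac
Defa30, chr8:21134500-21134649, plus strand: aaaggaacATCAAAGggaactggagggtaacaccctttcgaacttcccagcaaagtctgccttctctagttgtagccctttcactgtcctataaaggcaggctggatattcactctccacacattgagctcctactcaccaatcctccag
Gm14851, chr8:21096051-21096200, minus strand: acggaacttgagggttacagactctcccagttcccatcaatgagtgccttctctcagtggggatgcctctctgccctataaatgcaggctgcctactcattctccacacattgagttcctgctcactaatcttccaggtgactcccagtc
The letters ATCAAAG began 112 and 72 bases before the start of both Defa21 and Defa22, 114 and 74 bases before that of Defa23, and 142 bases before that of Defa30, and were not found in the window of Gm14851. Of 32851 promoters of this length, 3.73% held them on either strand. TATAAA was present in all 5 windows and in 13.6% of all promoters, and CAGCTG in 0 of 5 and in 16.3%. TATAAA began 31 bases before the start of Defa21 and Defa22 and 33 before that of Defa23. For Defa30 and Gm14851 it began 61 and 74 bases before, so distances to the annotated start are not like for like between these genes. No match of 1 motif overlapped a match of another in these windows. Defa23, which carried both ATCAAAG matches, had a promoter 81.9% identical to that of the pair.

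Near-identical copies limit what a UMI can say about a single gene. Windows of 91 bases over the last 300 bases of each transcript were compared with all other transcripts of the cluster. Every window of Defa24, AY761184 and Defa29 was unique, and 208 of 210 of Defa30 were. Of Gm14851 82.9% were unique, and the other 36 windows also occur in Defa29 transcripts. For Defa21 and Defa22 61.4% were unique, and the remaining 81 windows were shared between them. By contrast, 13.3% of windows were unique for Defa17, 0.476% for Defa5 and 0% for Defa23, so levels of these 3 genes are uncertain. How reads that map to several genes were treated is not stated.

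Paneth cells were barcodes in which symbols starting with Defa plus Lyz1 took 10% or more of UMIs, and this share is called the gate share. Of 7401 kept WT cells 356 passed (4.81%, interval 4.33 to 5.32), and of 5153 kept MG53-TG cells 198 passed (3.84%, interval 3.33 to 4.4). The difference of -0.97 percentage points had an interval of -1.68 to -0.25 for counting error. It was -3.27 with a minimum of 99 UMIs, -1.60 with 5000 UMIs and -0.43 with a gate of 5%. Just under the gate, at 8 to 10%, were 33 WT and 31 MG53-TG cells, and just above it, at 10 to 12%, were 26 and 23. The gate was set on the defensin UMIs themselves, so the high level of the members in these cells is how they were chosen and no finding. The 2 libraries had 158455748 and 128227881 UMIs in all, and 8 kept barcodes but 0 Paneth barcodes occurred in both. The defensins AY761184 and Gm14851 did not enter the gate, since their symbols do not start with Defa. The transgene was checked in the Paneth cells: Trim72 had 3 UMIs in WT (0.211 CPM, UMIs per 1000000 UMIs of the cells counted) and 296 in MG53-TG (42.3 CPM). Since each genotype had 1 library, no test between genotypes was possible. All intervals are 95% and cover counting error only.

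Summed over all gated cells, Paneth markers outside the gate stood above their level in other cells in both libraries. Mptx2, a pentraxin of Paneth cells, was at 5232 CPM in WT Paneth cells and 6010 CPM in MG53-TG Paneth cells, against 15.3 and 9.39 CPM in all other kept cells. Itln1 (intelectin, a lectin) was 37.7-fold and 33.3-fold higher in Paneth than in other cells, and Mmp7 was 10.8-fold and 13.2-fold higher. This did not hold alike for all gated cells. In the 63 MG53-TG cells at a gate share of 10 to 20% Mptx2 was at 33.1 CPM, against 8410 CPM in the 53 at 60% or more, and their 7 Paneth markers summed to 30175 CPM against 147032 CPM of goblet markers. In the 82 WT cells at 10 to 20% these values were 985 CPM of Mptx2, 25215 CPM of Paneth markers and 113679 CPM of goblet markers. Cells near the gate are therefore called Paneth cells by the rule only. Of the 8 goblet markers, 7 also had UMIs in Paneth cells, and their sum reached 34905 CPM (WT) and 53273 CPM (MG53-TG), against 55465 and 81794 CPM in the other cells. In the same Paneth cells absorptive markers summed to 1900 and 1675 CPM, cycling crypt markers to 193 and 50.4 CPM, tuft markers to 87.5 and 7.28 CPM, enteroendocrine markers to 37.8 and 8.85 CPM and T cell markers to 15.7 and 3.71 CPM.

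In UMIs summed over the gated cells, the alpha-defensins reached 576265 CPM in WT Paneth cells and 524012 CPM in MG53-TG Paneth cells, a log2 ratio of -0.14 (interval -0.139 to -0.135). These cells were chosen by the same UMIs, and the sum weights deep cells most. As a mean of single cells the levels were 482484 and 408594 CPM, with a log2 ratio of -0.24. At a gate of 40% the ratio was -0.02 (691436 and 682106 CPM), and in cells ranked by granule genes that are no defensins it turned to 0.21 (335476 and 387452 CPM). That ranking also counted the lectins Reg3b and Reg3g, which were higher outside the gate than within it. It can therefore take in cells other than Paneth cells, and how far it did was not tested. The 10 members held 98.1% and 97.6% of the alpha-defensin UMIs of the gated cells. All other cells had 3777 and 4150 CPM.

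The cryptdin Defa24 (ENSMUSG00000064213) came first by a wide margin. It held 49.0% of alpha-defensin UMIs in WT (282130 CPM) and 52.6% in MG53-TG (275668 CPM), and it had the most UMIs of any alpha-defensin in 356 of 356 and 198 of 198 Paneth cells. Defa30 (ENSMUSG00000074444), also a cryptdin, followed with 19.2% (110899 CPM) and 18.6% (97551 CPM). The CRS gene AY761184 held 10.0% (57907 CPM) and 10.4% (54366 CPM). Gm14851, another CRS gene, held 5.64% (32505 CPM) and 4.96% (25978 CPM).

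The order of the members down to Gm14851 was the same in both libraries, and below it the order differed. In WT, Defa22 (ENSMUSG00000074443) held 4.41% (25435 CPM) and Defa21 (ENSMUSG00000074447) 3.98% (22920 CPM), both above Defa17 with 3.29% (18962 CPM). In MG53-TG, Defa17 held 3.90% (20422 CPM) and came before Defa22 with 2.66% (13963 CPM) and Defa21 with 2.22% (11639 CPM). Defa29 held 1.79% and 1.44%, Defa5 0.484% and 0.507%, and Defa23 0.278% and 0.351%. Levels are compared here per UMI of 3′ end counting, in which transcript length does not enter.

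**Figure D1:**
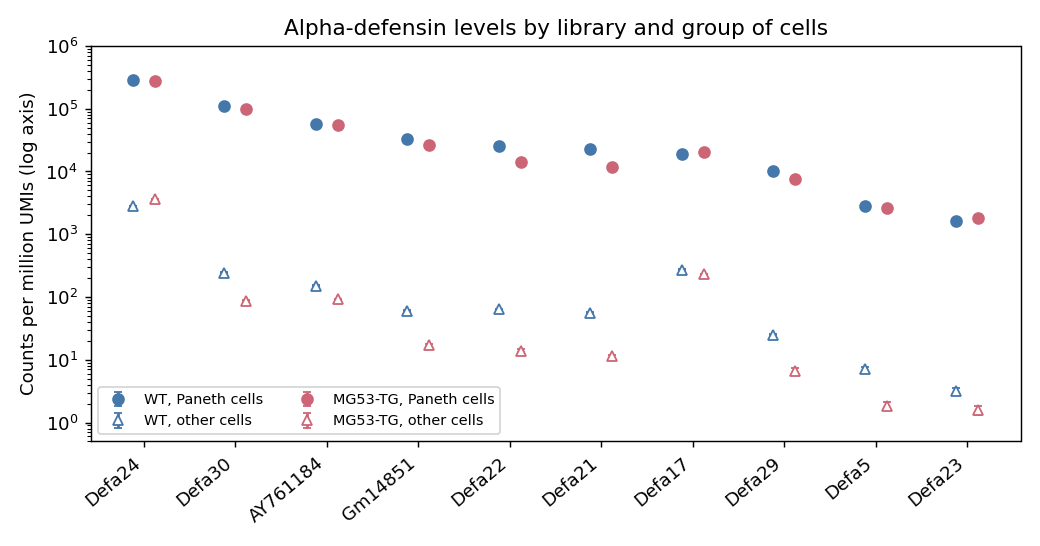
CPM (log axis) of the 10 members in Paneth cells (filled circles) and all other kept cells (open triangles) of the WT and MG53-TG libraries, with exact Poisson intervals that are mostly smaller than the symbols. Defa24 is highest throughout, and in Paneth cells the libraries lie apart most for Defa22 and Defa21.

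The members did not differ between the libraries by a common factor. Defa21 and Defa22 were lowest in MG53-TG relative to WT. The log2 ratio was -0.98 for Defa21 (interval -0.989 to -0.967) and -0.87 for Defa22 (interval -0.875 to -0.855). Defa29 followed with -0.46, Gm14851 with -0.32 and Defa30 with -0.19. AY761184 (-0.09), Defa5 (-0.07) and Defa24 (-0.03) lay closer to 0, and Defa17 (0.11) and Defa23 (0.20) were above it.

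No member was 2-fold or more apart, 0 of 10 in either direction. Of the 962 genes with 30 UMIs in total and 50 CPM in either library, 0.832% were at least 2-fold lower in MG53-TG and 0.832% at least 2-fold higher. The median log2 ratio was -0.14 over the members, 8 of them below 0, and 0.22 over all 962 genes. Members and other genes are parts of the same total, which defensins fill in large part, so the medians are not separate values. At a gate of 40% the medians were -0.01 and -0.06. Scaled to the median gene, Defa21 was at -1.20 and Defa22 at -1.08, both past 2-fold, whereas in cells ranked by granule genes that are no defensins they were at -0.54 and -0.39. That ranking has the limit given above. Under the scaling to the median gene, Defa17 and Defa23 were at -0.11 and -0.02.

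The composition as a whole, taken as 0.5 times the summed absolute differences in share, differed by 5.21 percentage points of alpha-defensin UMIs (interval 5.16 to 5.27). Of the alpha-defensins outside the 10 members, the 5 with most UMIs were Defa36, Defa3, Defa26, Defa34 and Defa20, which are cryptdin genes of the same cluster. Defa34 had a log2 ratio of 0.70 (778 and 1267 CPM) and Defa36 of 0.52 (3621 and 5204 CPM), whereas Defa3 was at 0.02, Defa26 at -0.13 and Defa20 at -0.34. All but 1 of the windows of Defa5 were shared with Defa34, so these 2 genes cannot be read separately.

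The Paneth cells of the libraries also differed in how far above the gate they lay. The gate share had a median of 52.0% for WT against 35.6% for MG53-TG, and 208 of 356 WT cells (58.4%) but 85 of 198 MG53-TG cells (42.9%) reached 40%. Within cells at 40% or more, a limit chosen after the values were seen, most members differed little between the libraries. Defa24 (0.03), AY761184 (0.03), Defa30 (0.08), Defa5 (0.09), Gm14851 (-0.04) and Defa17 (-0.04) lay within 0.1 of 0 on the log2 scale. Defa21 remained at -0.81 (29781 and 17008 CPM) and Defa22 at -0.71 (33200 and 20311 CPM), while Defa29 was at -0.24 and Defa23 at 0.46. Here too 0 of 10 members were 2-fold apart, against 3.25% of 523 genes lower and 0.382% higher in MG53-TG. The median over the members was -0.01 and over all genes -0.06.

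Taking Defa21 and Defa22 as 1 quantity removes the reads that could be split between them. Together they reached 48354 CPM (WT) and 25602 CPM (MG53-TG), a log2 ratio of -0.92 (interval -0.925 to -0.910). At a gate share of 60% or more the log2 ratio was -0.77, with 599998 UMIs of the pair in 135 WT cells and 146392 in 53 MG53-TG cells. The 5 cells with most held 17.0% of these in WT and 43.7% in MG53-TG, 1 cell alone 17.2% of the latter. At 40 to 60% it was -0.41, where the 5 cells with most held 56.9% and 55.3%. At 20 to 40% it was -0.35, where 1 cell held 74.1% of the MG53-TG UMIs. At 10 to 20% it was -3.39, from 1830 and 127 UMIs, of which 5 cells held 66.0% and 73.2%. Values of the pair thus rested on few cells in each stratum of MG53-TG, and below 60% in WT as well. Defa30 was at 0.14 at 60% or more and -0.11 at 40 to 60%. It was at -1.07 at 20 to 40% and -5.01 at 10 to 20%, where 5 of 82 WT cells held 81.2% of its 25440 UMIs and MG53-TG had 575.

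**Figure D2:**
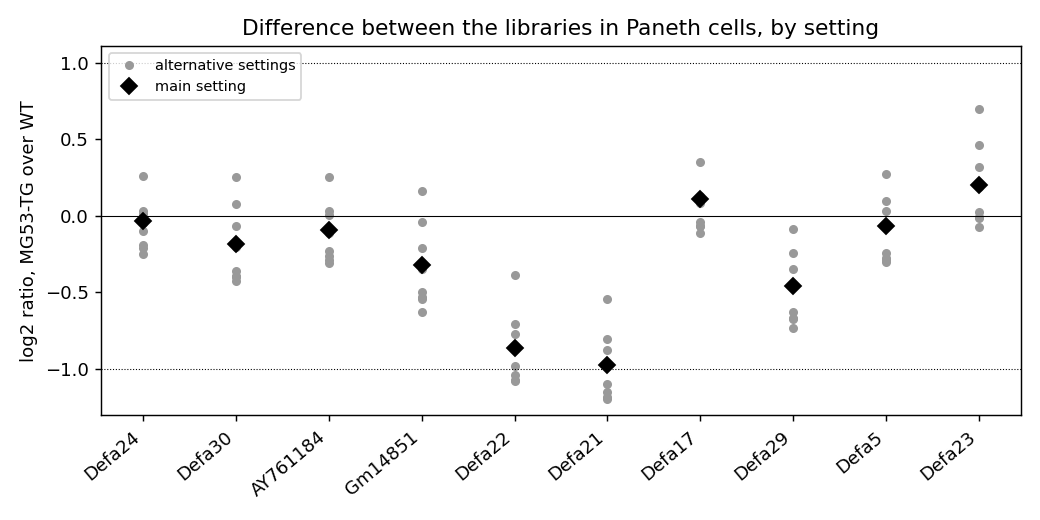
Log2 ratio of each member, MG53-TG over WT, in Paneth cells in the main setting (diamonds) and under the alternative settings (grey circles), with dotted lines at 2-fold. Defa21, Defa22 and Defa29 lie below 0 throughout, and the points of the other 7 members fall on both sides of it.

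The make-up of the alpha-defensins differed along the gate share. In cells at 60% or more, Defa24 held 46.8% in WT and 48.2% in MG53-TG, and Defa30 19.6% and 21.9%. At 10 to 20% Defa24 held 69.5% and 84.5%, and Defa30 10.2% in WT but 0.332% in MG53-TG. At 5 to 10%, below the gate, Defa24 held 82.4% and 87.3% and Defa17 10.8% and 7.33%. In cells at 1 to 5% Defa24 reached 85.5% and 93.7%, and Defa30 3.06% and 0.53%. Defa24 and Defa17 thus took more, and Defa30 less, of the defensin UMIs in cells below 20% than in the fullest cells. These strata were formed with the same UMIs, and so the pattern is a description.

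**Figure D3:**
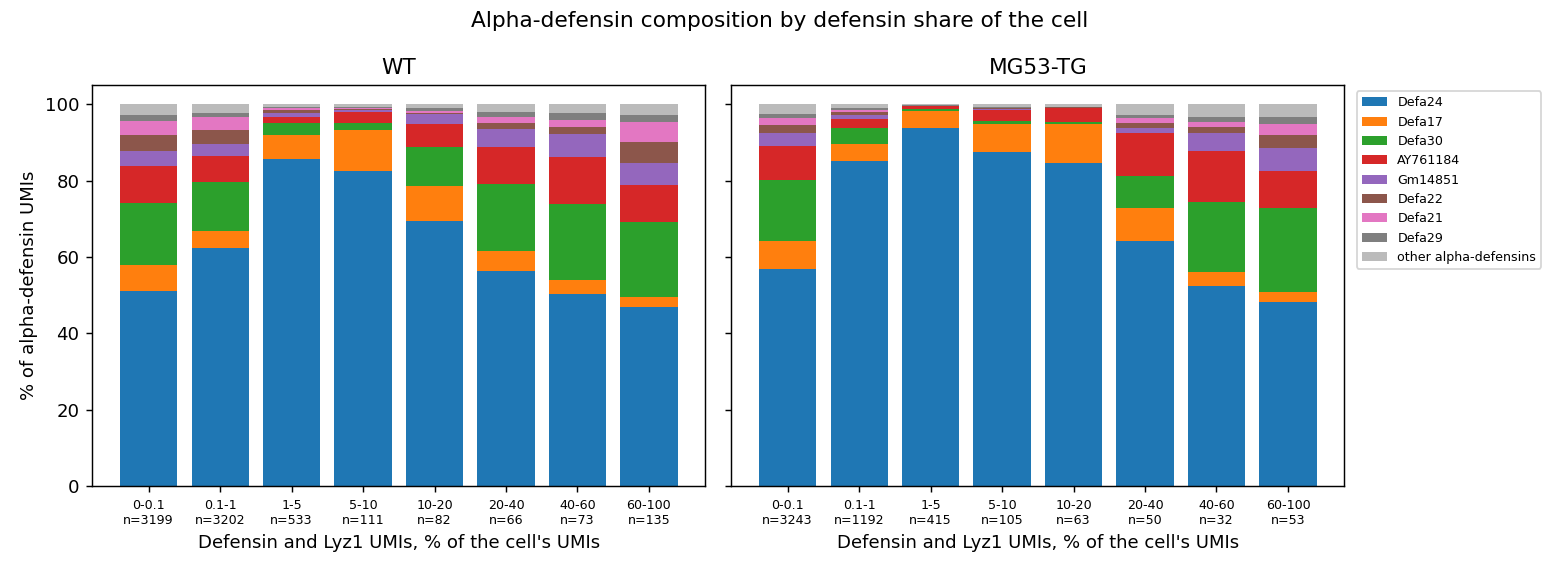
Percent of alpha-defensin UMIs held by each gene (bars sum to 100%) in kept cells grouped by the share of defensin and Lyz1 UMIs in the cell, for WT (left) and MG53-TG (right), with n the number of cells and with Defa5 and Defa23 among the other alpha-defensins. Defa24 takes 82.4% or more of the bars between 1 and 10%, where Defa30 takes 3.06% or less.

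Single cells at intermediate gate shares fell on both sides in their Defa30. Among cells at 20 to 40%, Defa30 held 10% or more of alpha-defensin UMIs in 37 of 66 WT cells (56.1%, interval 43.3 to 68.3) and in 13 of 50 MG53-TG cells (26.0%, interval 14.6 to 40.3), and under 1% in 18 and 24 cells. At 10 to 20% the cells with Defa30 at 10% or more were 11 of 82 in WT and 2 of 63 in MG53-TG, and those under 1% were 57 and 56. At 40% or more, 198 of 208 and 82 of 85 cells had Defa30 at 10% or more. At 10 to 20%, WT cells with under 1% had a median of 15839 UMIs against 47715 in those with 10% or more, so depth varied with Defa30 there. In MG53-TG these medians were 20541 and, for the 2 cells at 10% or more, 1578 UMIs.

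**Figure D4:**
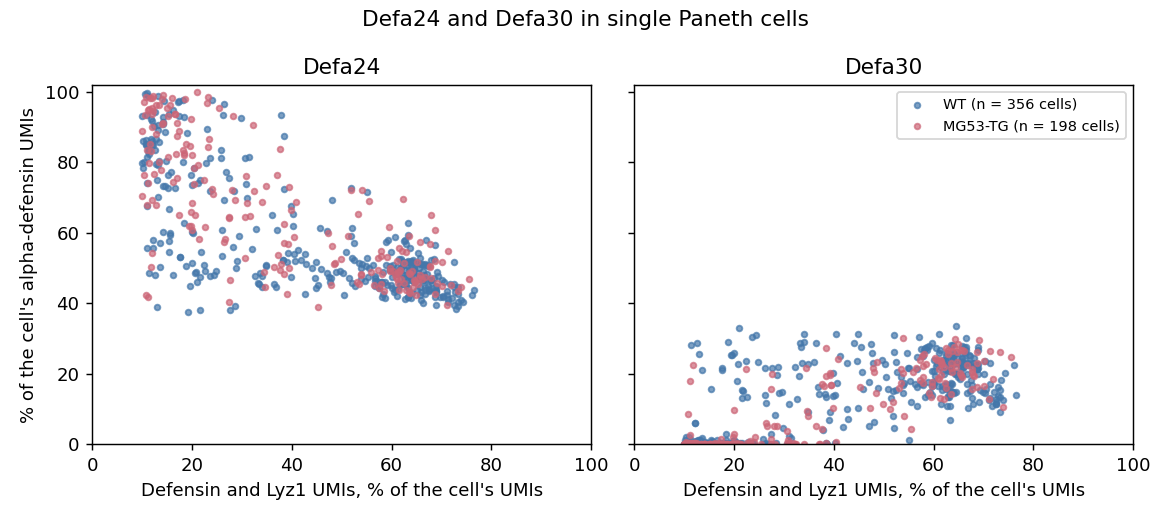
Percent of a cell's alpha-defensin UMIs from Defa24 (left) and Defa30 (right) against the share of defensin and Lyz1 UMIs in that cell, each point being 1 Paneth cell of WT or MG53-TG. Most cells above 40% lie near the same values in both libraries, whereas cells below 40% spread more widely, with Defa30 under 1% in 75 WT and 80 MG53-TG cells.

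Goblet markers varied along the same axis. The summed goblet list took 13.3% of the UMIs outside the gate genes in WT cells at 10 to 20% and 17.2% in MG53-TG cells there, against 4.24% and 3.87% at 60% or more. The 7 Paneth markers outside the gate went the other way, from 2.95% and 3.53% to 18.7% and 21.5%. At 10 to 20% the goblet list stood at 113679 and 147032 CPM, above its level in all other kept cells, so cells near the gate carried goblet genes beside defensins. The part of these cells, or of doublets, in the difference between the libraries was not tested beyond the removal of high doublet scores, after which Defa21 was at -0.96 and Defa22 at -0.85.

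Cells were also arranged without defensins. Paneth cells of each library were put in 4 groups of like size by Lyz1 as a percentage of UMIs outside the defensin cluster. From the lowest to the highest group Defa24 went from 69.2 to 46.8% of alpha-defensin UMIs in WT and from 87.7 to 49.1% in MG53-TG. From lowest to highest, Defa21 and Defa22 together held 0.58, 7.33, 7.61 and 10.6% in WT. In MG53-TG they held 0.09, 2.79, 6.23 and 4.88%, so the pair peaked in the group below the highest. Lyz1 entered the gate, so this arrangement is only in part separate from it.

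Within full Paneth cells, at a gate share of 40% or more, Defa21 and Defa22 varied from cell to cell more, relative to their median, than Defa24. Together they held between 0.033 and 34.3% of a WT cell's alpha-defensin UMIs (median 3.55%, 208 cells) and up to 28.9% in MG53-TG (median 2.70%, 85 cells). They reached 10% in 63 WT cells (30.3%) and 17 of 85 MG53-TG cells, and stayed under 1% in 57 (27.4%) and 29 (34.1%). For Defa21 the SD over WT cells was 4.49 percentage points around a median of 1.5%, against 0.169 points that counting alone would give. For Defa24 it was 5.73 points around a median of 47.5%. The libraries overlapped over nearly their whole range, and the spread over cells means that the counting intervals of the pair's sums are too narrow.

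**Figure D5:**
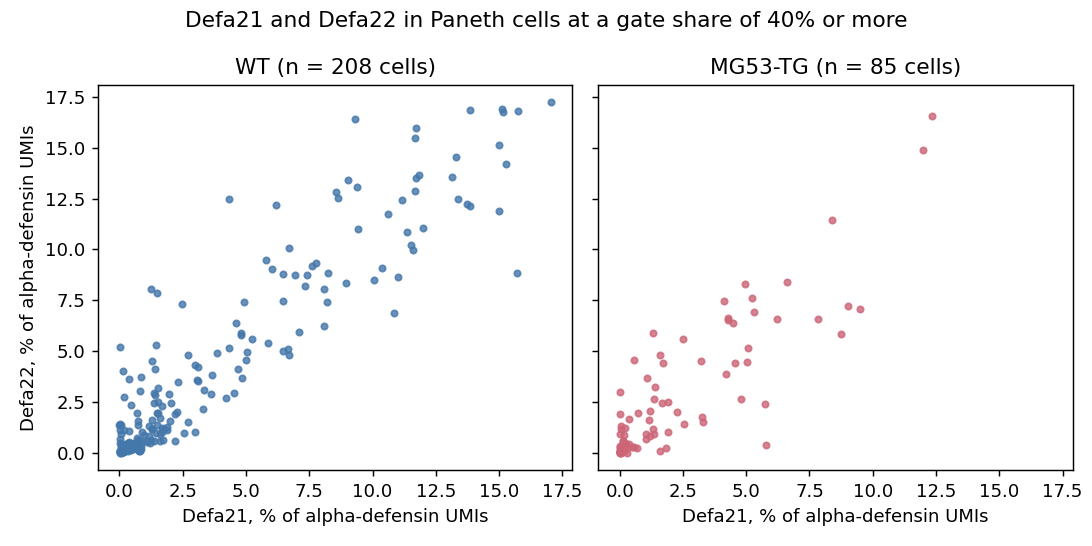
Percent of a cell's alpha-defensin UMIs from Defa22 against that from Defa21 in Paneth cells at a gate share of 40% or more, for WT (left) and MG53-TG (right), each point being 1 cell. The shares rise together over most cells, with some WT cells holding much Defa22 and little Defa21, and 63 WT and 17 MG53-TG cells have 10% or more in the pair.

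Over the 208 WT and 85 MG53-TG full cells, Spearman's rho between the shares of Defa21 and Defa22 was 0.88 and 0.79. Defa5 went with them, at 0.83 and 0.75 with Defa21 and 0.91 and 0.72 with Defa22. Single cells departed from this, such as a WT cell with 8.05% Defa22 and 1.23% Defa21. AY761184 went the other way, with -0.61 and -0.46 against Defa22, and Defa30 had -0.54 against Defa22 in WT but -0.04 in MG53-TG. Gm14851 and Defa23, next to each other among the members, had 0.56 and 0.60. These are descriptions over cells of 1 library each, whose shares add up to 100% and whose reads can fall on more than 1 copy. Of the UMIs per cell, rho with Defa21 was 0.18 and 0.05.

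Other cells held few alpha-defensin UMIs, and their make-up differed by cell class. Classes were ranges of a per-cell marker score, with 727 of 7045 WT and 462 of 4955 MG53-TG cells near a limit. Cells led by T cell markers, which should lack these genes, had 4259 and 2211 CPM of the members at median depths of 2746 and 3459 UMIs. Absorptive cells had 1555 and 806 CPM at 12143 and 18455 UMIs, and enteroendocrine cells 2002 and 750 CPM. Cells led by goblet markers had more, 8697 and 7953 CPM, at 14759 and 18255 UMIs. Tuft cells had 1846 and 1292 CPM. Cycling crypt cells (1659 and 1815 CPM) and the 1973 WT and 926 MG53-TG cells that no list led (3494 and 4451 CPM) were higher in MG53-TG.

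The ratio of Defa24 to Defa30 differed between classes. In WT there were 2.98 Defa24 UMIs per Defa30 UMI in droplets under 100 UMIs, 3.16 in T cell-led, 3.44 in absorptive and 3.38 in enteroendocrine cells, and 2.54 in Paneth cells. The ratio was 4.73 in tuft, 5.6 in cycling crypt and 28.1 in goblet-led cells, and 11.5 in cells that no list led, which had 45.8 in MG53-TG. In MG53-TG it was 3.96 in T cell-led, 3.73 in enteroendocrine and 98.1 in goblet-led cells, against 2.83 in Paneth cells, with absorptive (7.77), tuft (10.9) and cycling crypt cells (12.6) between. Defa24 was at 7484 and 7482 CPM in goblet-led cells and at 2223 and 1015 CPM in T cell-led cells. In goblet-led cells 330 of 1492 WT and 361 of 1674 MG53-TG cells, with a gate share of 1% or more, held 84.2% and 87.0% of that Defa24. Below 1% it was at 1520 and 1260 CPM in goblet-led and 1335 and 816 CPM in T cell-led cells. Defa17 per Defa30 UMI was 0.322 in WT T cell-led cells but 1.95 in those of MG53-TG, against 0.171 and 0.209 in Paneth cells. Empty droplets were analysed for WT only, and the part of free RNA in these levels was not tested. Levels at or below that of T cell-led cells were not read as expression. T cell-led cells were the shallowest class (medians of 2746 and 3459 UMIs), and equal amounts of free RNA make a higher CPM at lower depth. This limit can therefore be too high, and levels under it do not show that a gene is silent.

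Among 7143 genes outside the defensin cluster, those whose level over 8 cell classes in 2 libraries was most like that of the summed members were Lyz1 (lysozyme, Pearson's r 0.985 over 16 points), Pnliprp2 (a lipase, 0.959), Itln1 (0.953), Clps (colipase, 0.948) and Defb1 (a beta-defensin, 0.946). The points share libraries, and Lyz1 was in the gate. The Paneth cells of both libraries are among the points and were chosen by the members' own UMIs. There the members stood at 565468 and 511605 CPM, against 8697 CPM or less in every other class. The Paneth points therefore weigh heavily in r, and the ranking is a description.

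Of 15 listed Paneth granule genes without defensins, 14 were in the tables, all with 30 UMIs or more over both libraries. In MG53-TG 10 of these were higher and 4 lower, with a median log2 ratio of 0.15. Of 9820 genes with as many UMIs, a filter chosen after the values were seen, 66.4% were higher and the median was 0.16. At a gate of 40% 10 of 14 list genes were higher, with a median of 0.19, against 52.7% of 7843 genes and a median of 0.03. Lyz1 was at 0.09 (37404 and 39767 CPM), Mmp7 at 0.31, Itln1 at 0.24, Ang4 (an angiogenin ribonuclease) at 0.35, Mptx2 at 0.20 and Clps at 0.04. Pnliprp2 was at 0.10 and Habp2 at 0.37. The lectins Reg3b and Reg3g were at -1.09 and -0.71. Reg3b was higher outside the gate (17781 and 11444 CPM) than within it (3315 and 1559 CPM), as was Reg3g (5946 and 3830 CPM against 3307 and 2019 CPM), both were lower in MG53-TG there too, and 1 cell held 17.5% of the MG53-TG Reg3b UMIs. Nupr1, a stress response gene, was at -0.28. Mptx1 was at 2.28, but 1 cell held 20.4% of its 377 UMIs in WT and 1 cell 25.7% of its 905 in MG53-TG. It reached 50 CPM in MG53-TG alone (26.6 and 129 CPM) and was higher in MG53-TG outside the gate too (32.7 and 91.2 CPM).

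Of 20 listed genes of Paneth fate and the secretory pathway, 19 had 30 UMIs or more over both libraries. In MG53-TG 16 of these were higher and 3 lower, against 66.4% higher among the 9820 genes. The median was 0.52 against 0.16 over the 9820 genes. At a gate of 40% 14 of 18 were higher, with a median of 0.16, against 52.7% of 7843 genes and a median of 0.03. The 3 lower genes were Kcnn4 (-1.30), Fzd5 (-0.86) and Copz2 (-0.05), and Ephb3, an ephrin receptor, was highest, past 2-fold (23.0 and 46.5 CPM), all of them under 50 CPM and named after their values were seen. The genes named next had 50 CPM or more in either library, which Spdef, Tcf7l2, Wnt3 and Creb3l1 reached in MG53-TG alone. Goblet markers went the same way in the gated cells (34905 and 53273 CPM), and the 9 genes named were higher in MG53-TG outside the gate too, Atoh1 at 61.4 and 93.6 CPM and Hspa5 at 504 and 704 CPM. The part of these in the difference was not tested. Hspa5, a chaperone of the endoplasmic reticulum, was at 0.94, Creb3l1 at 0.74, Spdef at 0.64, Wnt3 at 0.62 and the secretory fate factor Atoh1 at 0.55. Sox9, needed for Paneth cells, was at 0.45, Tcf7l2, a TCF factor, at 0.35, Xbp1 at 0.30 and Cd24a at 0.23. None of these 9 was 2-fold apart.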

How the data were processed

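Crypt cells sorted as 7-AAD negative and EpCAM+ were captured with the 10x 3′ kit, version 3. The deposited values were UMI counts per gene and barcode, made by the authors with Cell Ranger (version 4 for WT and 6.0.1 for MG53-TG, per the file headers) on mm10, and not scaled. The WT table held 2005718 barcodes, empty droplets included, and that of MG53-TG held 12361 with 500 UMIs or more, so program, barcode list and genotype cannot be told apart. The study gives a number of mice per group without saying how they map to the libraries. Submitters' notes name Seurat.

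Barcodes with at least 1354 UMIs (the inflection of the WT rank curve), 200 genes and at most 25% mitochondrial UMIs were kept, doublets included. UMIs were summed per library and group of cells. CPM is UMIs per 1000000 UMIs of those cells, and log2 ratios put MG53-TG over WT. Intervals were exact Poisson (levels), Clopper-Pearson (shares) and conditional binomial (ratios), at 95%, except normal intervals for the differences of 2 shares (Paneth share and composition). Of these, the ratio intervals alone had their coverage tested, on simulated counts with counting error only. PCR and cell-to-cell variation are not covered. Identity came from global alignments of transcripts. A cell class needed a marker z-score of 1 and a lead of 0.5.

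Named genes were the 10 members, the 5 other alpha-defensins with most UMIs, list genes at 50 CPM or more, and the 5 most alike genes, beside markers and the transgene. Kcnn4, Fzd5, Copz2 and Ephb3 and the genes that went with Defa21 and Defa22 were named after their values were seen. The members and lists were chosen with earlier results of these data known. Alternatives changed the UMI minimum, mitochondrial limit, gate, doublets, scaling, filter and denominator. Python 3.11.15, NumPy 2.4.6, SciPy 1.17.1 and Scanpy 1.11.5 (Scrublet) were used.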

Additional observations from a re-analysis of the deposited data

Results flagged for a closer look

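Alpha-defensin UMIs were present in barcodes outside the main filters, above the 3 counts that a count of 0 allows. WT droplets under 100 UMIs held 271382, with Defa24 at 50.8% and Defa30 at 17.0% of them, close to the make-up of WT Paneth cells. Barcodes of 500 UMIs up to the minimum held 90373 in WT and 17616 in MG53-TG. Barcodes over the mitochondrial limit held 82263 in WT and 33972 in MG53-TG, and of these barcodes 11 of 3755 and 4 of 4402 reached the gate of 10%.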

How the results depend on the processing

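No paired analysis was possible because each genotype had 1 library and the labels give no replicate number. For the same reason no replicate could be left out. Defa21, Defa22 and Defa29 kept a log2 ratio below 0 under all 13 alternatives each, from -1.20 to -0.54, -1.08 to -0.39 and -0.73 to -0.09. The Paneth share difference ran from -3.27 points, with a UMI minimum of 99, to -0.43, with a gate of 5%. The ranking by granule genes takes the same number of cells by construction and says nothing on it. At 99 UMIs WT Paneth cells went from 356 to 695 and MG53-TG ones from 198 to 201. The MG53-TG table starts at 500 UMIs, so below that the setting can add barcodes in WT only. Barcodes from 500 UMIs to the main minimum also differed in number, with 2865 in WT and 1456 in MG53-TG. The part of each was not tested. The summed alpha-defensins had a log2 ratio of -0.13 with a mitochondrial limit of 15% and with 99 UMIs, -0.31 with a gate of 5%, -0.069 with 20% and -0.0196 with 40%, -0.15 without doublets, -0.36 under the median of ratios, -0.31 per UMI outside defensins and Lyz1, -0.24 as a mean of single cells and -0.14 with other cells subtracted. It reversed to 0.21 when cells were ranked by granule genes that are no defensins, where the sums were 335476 and 387452 CPM. That list holds Reg3b and Reg3g, which were higher outside the gate than within it.

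Members 2-fold lower numbered 2 with a gate of 5%, under the median of ratios and per UMI outside defensins and Lyz1 (Defa21 and Defa22 each time), and 1 as a mean of single cells (Defa21), and 0 under the 9 others. The distance of composition was 5.81 points with a gate of 5%, 4.4 with 20%, 4.09 with 40%, 3.66 with the granule ranking, 5.12 without doublets, 9.14 as a mean of single cells, 5.15 with other cells subtracted and 5.32 with Gm7861, a cluster gene outside the lists, in the denominator. Genes past 2-fold numbered 16, but 30 with other cells subtracted and 4357 with no filter on low counts.

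Directions of single members depended on the setting. With a gate of 5%, Defa17 was at -0.0689 and Defa23 at -0.00558. With 20%, Defa24 was at 0.00982, AY761184 at 0.0034 and Defa5 at 0.0305. With 40%, Defa24 was at 0.0298, Defa30 at 0.0758, AY761184 at 0.0336, Defa17 at -0.0405 and Defa5 at 0.0948, and the share differences of Defa30 and Defa17 were 1.35 and -0.0422 points. Under the granule ranking, Defa24 was at 0.26, Defa30 at 0.25, AY761184 at 0.25, Gm14851 at 0.16 and Defa5 at 0.27, with a share difference of 0.62 points for Defa30. Under the median of ratios, Defa17 was at -0.11 and Defa23 at -0.0159, and per UMI outside defensins and Lyz1 Defa17 was at -0.0682. As a mean of single cells, Defa23 was at -0.0735, and the share differences of AY761184, Defa5 and Defa23 were -0.373, -0.0573 and -0.0164 points. The cause was not tested. The gate of 40% and the denominator with Gm7861 were chosen after seeing the data. Scrublet's own limit marked 1 WT and 2 MG53-TG cells, so the highest scores were removed at 0.8% per 1000 cells.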

Other observations

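Genes outside the cluster that went with Defa21 and Defa22 over full Paneth cells were ordered in WT after its values were seen and read again in MG53-TG, among 4614 genes. Pearson's r with the pair's share was highest in WT for Nupr1 (0.39, and 0.45 in MG53-TG) and Fth1, the ferritin heavy chain (0.39 and 0.48). Guca2a (guanylin) had 0.34 and 0.21, Ang4 0.33 and 0.17, and Mcur1 0.36 and 0.08. It was lowest for the ribonuclease Rnase1 (-0.57 and -0.37) and the transcription factor Onecut2 (-0.46 and -0.44), followed by the chemokine Ccl6 (-0.43 and -0.20), Ly6e (-0.37 and -0.36) and the metallothionein Mt1 (-0.36 and -0.31). The cells of a library share depth and free RNA, and no test was made.

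Over all kept cells outside the gate, Defa24 stood at 2855 CPM (WT) and 3655 CPM (MG53-TG). Cells near the gate, at a gate share of 1 to 10%, were 644 of the 7045 WT and 520 of the 4955 MG53-TG cells and held 73.3% and 84.3% of this Defa24. Defa30, at 243 and 87.8 CPM, and Defa21, at 56.2 and 11.3 CPM, were below their levels in T cell-led cells (704 and 256 CPM for Defa30, 192 and 48.3 CPM for Defa21), and no difference was read from them.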
